A study of Mus musculus with 4 samples.

Results

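Milk fat leaves the secretory cell of the mammary gland as a lipid droplet wrapped in plasma membrane. Inside the cell the droplet carries a coat of perilipins, and at the apical surface it meets butyrophilin and xanthine oxidoreductase, which are thought to hold the coat to the membrane as the globule buds off. The released milk fat globule membrane also carries mucins, lactadherin and the fatty acid receptor CD36, and several of these proteins are made by fat cells, blood vessels and macrophages of the gland as well. Genes for 8 such proteins were followed here, taken by their exact symbols: Btn1a1, Xdh, Plin2, Plin3, Mfge8, Muc1, Muc15 and Cd36. They were represented by 12 of the 45037 probe sets on the array that are not controls, and they are 8 of the 18193 genes with a probe set of their own.

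Total RNA from mouse mammary tissue was hybridised to 4 arrays. The labels give the genotype as STAT5 WT for 2 of them and STAT5 KO for the other 2, name no treatment, strain or age, and do not say which STAT5 gene was deleted, in which cells, or by what means. STAT5 denotes the closely related transcription factors STAT5A and STAT5B, which prolactin activates in mammary epithelium, and the title of the series concerns STAT5A and luminal progenitor cells. The design text describes 2 mice per genotype and a time of 6 days, without the event from which the days were counted. Numbers of replicates follow the order of deposit and pair no animals.

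The arrays were alike in scale, with a trimmed mean signal of 500 and median signals between 121 and 131. Stat5a and Stat5b gave 4 probe sets. In each of them the KO values lay below the WT values without reaching the threshold of the test (adjusted p from 0.102 to 0.246 by limma). On the brighter probe sets, dropping KO replicate 1 turned the log2 difference of Stat5a from -0.79 to -1.33 (adjusted p = 0.0115) and that of Stat5b from -0.78 to -1.07 (0.0227), and dropping KO replicate 2 gave -0.25 and -0.50, with no call. Their KO means were 44.6% to 61.7% of the WT means, each was lower on KO replicate 2 than on KO replicate 1, and all KO signals (199 to 1836) lay above the array medians. A probe set outside the deleted part, which the labels do not give, would not check the genotype. Markers of mammary epithelium and of fat were present on every array, with Epcam at 9145 and 8659 in WT and 4233 and 6330 in KO, and Adipoq at 17022 to 19208 over the 4 arrays. Epithelial markers did not all move with Epcam: of 24 tested, 13 lay below WT on both KO arrays, 4 lay above and 7 overlapped. Of all tested genes 27.5% lay below and 26.2% above. The tissue holds many cell types, so fewer cells of a type and less RNA per cell cannot be told apart.

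Butyrophilin and mucin 1 transcripts were lower in KO, and the other 6 genes did not pass the test. Btn1a1 stood at 12.2% and Muc1 at 40.1% of the WT mean. Muc15 had a large difference in the same direction but very different values on the KO arrays, and Xdh was higher on both KO arrays. The 95% intervals of Plin2, Plin3, Mfge8 and Cd36 crossed 0, and that of Plin2 reached -0.70. All 8 genes passed the filter on dim signals, although Btn1a1 did so through its WT level. Of the 8 genes 2 were lower past the threshold and 0 higher, where 2.57% of the 11360 tested genes passed, 1.36% lower and 1.21% higher. At an unadjusted limma p under 0.05, 3 were lower and 1 higher. The median difference over the 8 genes was -0.16 on the log2 scale, against -0.01 over all tested genes. Groups did not overlap for 6 of the 8, 4 with KO below WT and 2 with KO above it, where 53.7% of all tested genes did not overlap, 27.5% with KO below and 26.2% with KO above. Differences are KO minus WT of log2(signal + 16), with limma's standard error (SE), a 95% interval not adjusted for the number of tests, and a two-sided p adjusted by the Benjamini-Hochberg method across the 22519 probe sets tested.

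**Figure D1:**
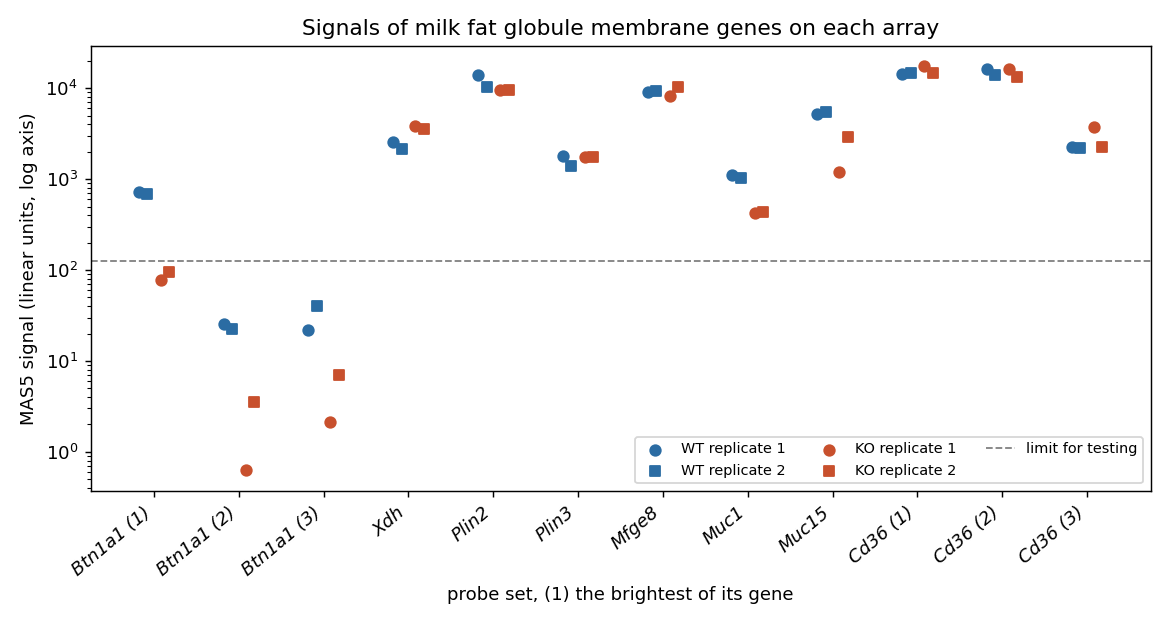
Signal of every probe set of the 8 genes (x axis) on each of the 4 arrays (y axis, MAS5 signal in linear units on a log axis; blue WT, orange KO, circles replicate 1, squares replicate 2). The dashed line marks a signal of 126, the level that the mean over the arrays had to reach for testing. The KO points of Btn1a1 (1), Muc1 and Muc15 lie below their WT points, and the probe sets Btn1a1 (2) and (3) lie under the line on all arrays.

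Btn1a1 encodes butyrophilin, a membrane protein of the immunoglobulin superfamily that is concentrated in the apical membrane of the lactating cell and in the globule. Its brightest probe set, 1419175_a_at, gave 730 and 679 in WT and 77.4 and 94.3 in KO, replicate 1 first here and throughout. Both WT arrays were high, both KO arrays were low, and the groups were far apart compared with their own spread (704 ± 36.1 against 85.8 ± 11.9, SD, n = 2). KO differed by -2.83 on the log2 scale with an SE of 0.19 and an interval from -3.27 to -2.38 (limma adjusted p = 0.00267), a 7.09-fold lower level. Of all tested genes 0.106% had a lower difference. Both KO signals lay under the KO array medians of 121 and 124 and under the filter's 126. Whether they exceeded background is unknown here, so the fold rests on a KO level that is not well known. With no filter at all the gene was still lower (adjusted p = 0.0246).

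The 2 other Btn1a1 probe sets were dim on every array and were not tested. Probe set 1425754_a_at gave 25.3 and 22.2 in WT and 0.624 and 3.49 in KO. Probe set 1451824_at gave 22.1 and 40.4 in WT and 2.15 and 7.06 in KO. Each was lower on both KO arrays, so the 3 probe sets of the gene had the same direction, but at this signal a ratio has little meaning. In the fit with no filter neither dim probe set passed (log2 difference -1.14 and -1.18, limma adjusted p = 0.139 and 0.181).

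Xdh encodes xanthine oxidoreductase, an enzyme of purine breakdown that in the mammary gland also serves as a structural partner of butyrophilin in the globule membrane. It gave 2561 and 2127 in WT and 3813 and 3534 in KO, so both KO arrays lay above both WT arrays. Its log2 difference of 0.65 had an SE of 0.14 and an interval from 0.31 to 0.99 and did not pass after adjustment (limma adjusted p = 0.0694). The adjusted p ran from 0.0564 to 0.323 over 13 alternative settings, none of which gave a call, and the value was above 0 in all 13. Btn1a1 and Xdh, whose proteins meet at the globule membrane, therefore had differences of opposite sign, although a test between the genes was not made.

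Plin2 encodes adipophilin, the main perilipin on the cytoplasmic droplets of the secretory cell and a protein of other lipid-storing cells. It gave 13974 and 10331 in WT and 9626 and 9552 in KO. The KO arrays were lower and nearly equal, and the WT arrays differed by 1.35-fold from each other, more than WT replicate 2 differed from KO. On the log2 scale KO differed by -0.32, with an SE of 0.16 and an interval from -0.70 to 0.05 (limma adjusted p = 0.320). When each array was centred on its epithelial markers the value was 0.01.

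Plin3 encodes a perilipin found both free in the cytoplasm and on new droplets. Its signals were 1821 and 1405 in WT and 1739 and 1736 in KO, and the KO values lay between the WT values. The log2 difference was 0.12 (95% interval -0.27 to 0.50, limma adjusted p = 0.744). It was -0.07 without WT replicate 2, so no direction is given.

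Mfge8 encodes lactadherin, a secreted protein that binds phosphatidylserine on membranes and integrins on phagocytes. Its signals were 9122 and 9291 in WT and 8194 and 10394 in KO, one KO array on each side of WT. The log2 means of KO and WT differed by 0.00 (limma adjusted p = 0.993). The interval of the difference ran from -0.34 to 0.34, so smaller changes in either direction would not have been seen. The sign turned without WT replicate 1 and without KO replicate 2.

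Muc1 encodes a transmembrane mucin of the apical surface of ductal and alveolar cells. It gave 1111 and 1029 in WT and 423 and 434 in KO. Both groups were tight (1070 ± 57.6 against 429 ± 7.34, SD, n = 2) and did not overlap. The log2 difference was -1.29 with an SE of 0.15 and an interval from -1.64 to -0.94 (limma adjusted p = 0.0203), a 2.44-fold lower level. Of all tested genes 1.42% had a lower difference. The call ended with no filter (limma adjusted p = 0.0626) and without WT replicate 1 (-1.23) or WT replicate 2 (-1.34). Centring on epithelial markers gave -0.96, and the adjusted p-values of that fit cannot be set beside those reported. Muc1 was lower in all 13 settings.

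Promoters of 5 of the 8 genes (Muc1, Plin2, Plin3, Mfge8 and Cd36) were matched in the RefSeq table used here, and that of Muc1 is shown because the gene fell. Btn1a1, Xdh and Muc15 were not matched. The 250 bases before its start site (RefSeq, GRCm38.p6, chr3:89228806-89229055, plus strand) follow 5′ to 3′, with the letters TATAAA in capitals.
Muc1: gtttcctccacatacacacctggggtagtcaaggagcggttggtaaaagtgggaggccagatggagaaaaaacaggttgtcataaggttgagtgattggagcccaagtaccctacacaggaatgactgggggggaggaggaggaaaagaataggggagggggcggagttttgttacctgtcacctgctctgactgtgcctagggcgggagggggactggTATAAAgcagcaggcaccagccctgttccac
The capitals begin at base -31 from the start site. TATAAA on either strand was found in the same 250-base window of 12.4% of 32851 promoters, and among the 5 matched genes in Muc1 alone. The letters TTCNNNGAA, which STAT5 proteins bind and which read the same on both strands, were searched in windows of 300 bases, from 250 before to 50 after the start site. They were in none of these 5 windows and in 8.30% of all 32851. No match says only that these letters are not in this window.

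Muc15 encodes another transmembrane mucin of the globule membrane. It gave 5199 and 5420 in WT and 1210 and 2910 in KO. Both KO arrays were below WT, but KO replicate 2 was 2.41-fold above KO replicate 1, while the WT arrays differed by 1.04-fold. The levels were 22.8% of the WT mean on KO replicate 1 and 54.8% on KO replicate 2. The log2 difference was -1.49 with an SE of 0.36 and an interval from -2.35 to -0.63, which did not pass (limma adjusted p = 0.0871). Leaving out KO replicate 1 gave -0.86 (adjusted p = 0.0339), and leaving out KO replicate 2 gave -2.12 (adjusted p = 0.000694), so each KO array passed when taken alone. In such a fit the lone KO array is assumed to vary like the WT arrays.

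Cd36 encodes a receptor that takes up long-chain fatty acids, made by fat cells, capillaries, macrophages and muscle as well as by milk-secreting cells. Its brightest probe set, 1450883_a_at, gave 14264 and 14558 in WT and 17516 and 14711 in KO. Probe set 1423166_at gave 16403 and 14140 in WT and 16422 and 13443 in KO. The third, 1450884_at, gave 2258 and 2223 in WT and 3736 and 2283 in KO. KO replicate 1 was the highest array on all 3 probe sets, by little on the second, and the groups overlapped on that one only. The log2 differences were 0.16, -0.04 and 0.38 (limma adjusted p = 0.551, 0.921 and 0.410), and no probe set passed. On the brightest probe set KO replicate 1 stood 0.28 and KO replicate 2 stood 0.03 above the WT mean.

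**Figure D2:**
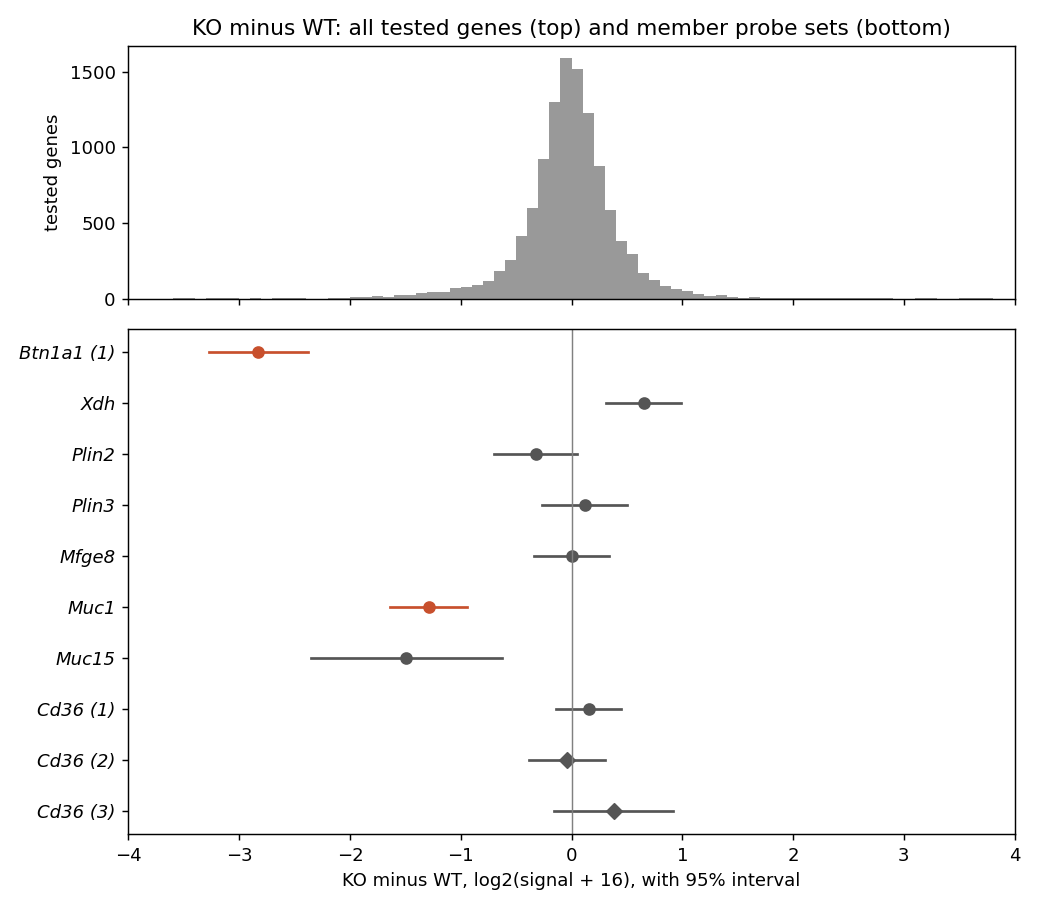
Top, number of tested genes (y axis) in each 0.1 step of KO minus WT (x axis, log2(signal + 16), shown from -4 to 4). Bottom, the difference of each tested probe set of the 8 genes with its 95% interval (circles, brightest probe set of a gene; diamonds, other probe sets; orange, adjusted p under 0.05). Btn1a1 at -2.83 and Muc1 at -1.29 are orange, Muc15 at -1.49 has the widest interval, and the intervals of Plin2, Plin3, Mfge8 and Cd36 cross 0.

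The median of general epithelial markers lay below 0, in the direction of Btn1a1, Muc1 and Muc15. Of 24 tested markers 1 fell (Ehf, an ETS transcription factor), 1 rose (Krt7, a keratin of simple epithelia) and 22 did not pass, and the median difference was -0.39. Of the markers 13 lay below WT on both KO arrays and 4 above, where 27.5% of all tested genes lay below and 26.2% above. At an unadjusted limma p under 0.05, 8 were lower and 2 higher, and without KO replicate 2 the number that fell was 8 in place of 1. Their summed signal was 55593 and 58314 in WT and 38607 and 59783 in KO, so KO replicate 1 was low and KO replicate 2 was not. No epithelial marker had a larger fall than Btn1a1, and 1 of the 24, Ehf, had a larger one than Muc1 or Muc15. Ehf and Krt7 were called in 7 and 6 of 13 settings, and without either WT array both calls ended.

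The KO arrays differed for some of the 8 genes and not for others. Against the WT mean, the epithelial marker median was -0.57 on KO replicate 1 and -0.16 on KO replicate 2. Muc15 differed in the same direction, with -2.12 and -0.86. Muc1 had -1.30 and -1.27, nearly the same on both KO arrays. Btn1a1 had -2.95 and -2.71, from KO signals under the array medians, so no likeness is read from them. Centring on the epithelial markers shifted the median over all tested genes to 0.32. After it, Btn1a1 was still lower (-2.49, limma adjusted p = 4.71e-08), and Muc15 had -1.16 (adjusted p = 0.101). The adjusted p-values of that fit cannot be set beside those reported. The difference of Btn1a1 shrank while its adjusted p fell. That of Xdh grew from 0.65 to 0.98 while its limma adjusted p rose from 0.0694 to 0.231. The share of all calls that were higher in KO was 47.3% as reported, 61.7% with each array centred on its median and 74.9% centred on epithelial markers.

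**Figure D3:**
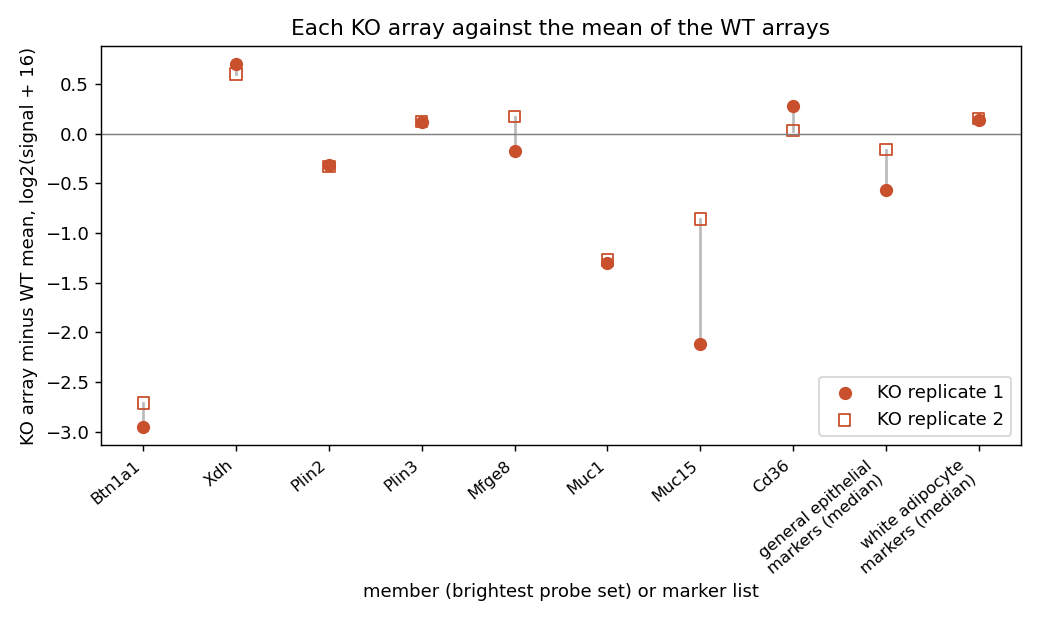
Difference of each KO array from the mean of the WT arrays (y axis, log2(signal + 16)) for the 8 genes and for the medians of epithelial and fat cell markers (x axis; filled circles KO replicate 1, open squares KO replicate 2). Muc15 lies at -2.12 and -0.86, while Muc1 lies at -1.30 and -1.27.

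Of the other cells that make some of these proteins, limma called no marker of fat cells, vessels or macrophages, and muscle markers rose. None of 12 tested white fat cell markers passed (median 0.17, with 1 lower and 2 higher at an unadjusted p under 0.05). Their summed signal was 133575 to 146118 in WT and 145140 to 146399 in KO, but it leans on very bright genes such as Fabp4 (22227 to 25536). The largest differences were those of Lep and Gpd1 (-0.76 and -0.60, limma adjusted p = 0.600 and 0.201). Lep gave 3615 and 2200 in WT and 3808 and 717 in KO. None of 15 endothelial markers passed (median 0.15; 0 lower and 3 higher unadjusted), with a sum of 20494 to 21996 in WT and 23237 to 25843 in KO. None of 12 macrophage markers passed (median 0.53; 1 lower and 7 higher unadjusted), with a sum of 36129 to 41153 in WT and 47940 to 48219 in KO, and Cd163, a scavenger receptor, came nearest with 1.07 (limma adjusted p = 0.0507) and was called in 5 of 13 settings, among them those without WT replicate 1 and without KO replicate 2. Skeletal muscle, which also makes CD36, differed most: 5 of 12 tested markers rose and 0 fell (median 2.44), among them the fast myosin gene Myh4 (3.30, limma adjusted p = 0.0138). The 5 that rose passed the filter on dim signals through their KO level. Their WT signals were 5.69 to 115, under the WT array medians of 131 and 130, so the count and the median lean on the filter. The number that rose was 0 with no filter, and it moved up or down when single arrays were left out. Myh4 lost its call with no filter and without WT replicate 2. The sum of the muscle markers was 1893 to 3811 in WT and 7966 to 13866 in KO. No marker of these lists that was tested stood at 0. The part of any cell type in the values of the 8 genes was not tested.

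Few other members of the same protein families could be tested. Of 18 measured paralogues 7 were bright enough to test, 1 rose, 0 fell and 6 did not pass (median 0.25; 1 lower and 3 higher at an unadjusted limma p under 0.05). Btnl9, a butyrophilin-like gene, rose from 1248 and 1157 to 2230 and 1970 (log2 difference 0.79, limma adjusted p = 0.0472), opposite to Btn1a1. Its call was kept in 4 of 13 settings and ended without WT replicate 1, without WT replicate 2 or without KO replicate 1 (adjusted p from 0.0304 to 0.224 over all 13).

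Other perilipins and mucins were picked after their values were seen. Plin4, a perilipin of fat cells, gave 7282 and 7962 in WT and 11918 and 10164 in KO (0.53, limma adjusted p = 0.0886). Plin5, a perilipin of tissues that burn fat, gave 573 and 679 in WT and 712 and 775 in KO (0.25, adjusted p = 0.453). Neither passed, and the KO values of both lay above WT.

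Of 10 measured mucin genes, Muc1 and Muc15 included, 4 lay below WT on both KO arrays, 3 lay above and 3 overlapped, in the values as deposited. Of all tested genes 27.5% lay below and 26.2% above, but only 3 of the 10 mucins were bright enough to test. No result about mucins as a family is read from these counts. Muc20, a membrane mucin, gave 440 and 396 in WT and 229 and 182 in KO (-0.98, limma adjusted p = 0.0567). Muc4, another membrane mucin, gave 112 and 120 in WT and 13.7 and 4.29 in KO, too dim for the main test (-2.43 with no filter, adjusted p = 0.0905). Muc16, the mucin that carries the CA125 antigen, went the other way, with 24.3 and 32.3 in WT and 349 and 394 in KO. It also was too dim for the main test and rose in the fit with no filter (3.13, limma adjusted p = 0.0454), where 0.148% of 18193 genes passed, 0.0715% higher and 0.0770% lower.

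No gene passed among those that build, coat and break down lipid droplets. Of 21 tested, limma called 0 lower and 0 higher (0 and 3 at an unadjusted p under 0.05), and the median was 0.14. The largest differences were those of Pnpla3, a lipase of droplets, with 8639 and 5165 in WT and 6881 and 2633 in KO (-0.65, limma adjusted p = 0.473), and of Abhd5, the activator of the main droplet lipase, with 2519 and 2836 in WT and 3732 and 4371 in KO (0.59, adjusted p = 0.0822). Pnpla3 varied more within each genotype than between them, and its sign turned without KO replicate 2, whereas Abhd5 was higher on both KO arrays. Cidea, a droplet fusion protein that binds perilipin and is named here by choice after its values were seen, gave 7532 and 5734 in WT and 5892 and 6897 in KO (-0.04, adjusted p = 0.916).

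Of 26 tested genes for other proteins carried by milk fat globules, 1 rose, 0 fell and 25 did not pass (median 0.06; 1 lower and 5 higher unadjusted). Clu, which encodes the secreted chaperone clusterin, rose from 4754 and 4524 to 7237 and 8256 (0.73, limma adjusted p = 0.0435), a call kept in 5 of 13 settings and lost without WT replicate 1, WT replicate 2 or KO replicate 2. The fatty acid binding protein gene Fabp3 and the milk transporter gene Abcg2, also chosen after the fact, did not pass (-0.06 and 0.25, limma adjusted p = 0.956 and 0.498). Fabp3 gave 455 and 655 in WT and 337 and 811 in KO, so its KO arrays lay on opposite sides of WT.

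Among 27 tested genes of milk fat synthesis 1 fell, 0 rose and 26 did not pass (median -0.10; 2 lower and 0 higher unadjusted). The number that fell was 5 without KO replicate 1 and 0 without WT replicate 1 or WT replicate 2. Fads2, a desaturase of polyunsaturated fatty acids, fell from 1848 and 1897 to 745 and 719 (-1.34, limma adjusted p = 0.0138). Its call ended without either WT array. Centred on epithelial markers, the difference of Fads2 was -1.01.

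Lactadherin and CD36 also take part in the clearance of dying cells, and of 16 tested genes of that process 1 fell, 0 rose and 15 did not pass (median 0.11). At an unadjusted limma p under 0.05, 2 were lower and 6 higher. Of the 16, 3 lay below WT on both KO arrays and 9 above, where 27.5% of all tested genes lay below and 26.2% above. Without KO replicate 2 limma called 2 lower and 1 higher. Thbs1, which encodes thrombospondin 1, a matrix protein that CD36 binds, fell from 2442 and 2747 to 864 and 1296 (-1.28, limma adjusted p = 0.0401). Its call was kept in 7 of 13 settings and ended without either WT array. The integrin subunits that bind lactadherin, picked after their values were seen, did not pass, with -0.05 for Itgav, -0.04 for Itgb3 and 0.13 for Itgb5 (adjusted p = 0.910, 0.962 and 0.627).

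Genes of milk proteins, the other secreted products of the same cells, covered a wider range. Of 7 tested milk protein genes 4 fell, 1 rose and 2 did not pass (median -1.27). The rest of the 12 measured, Csn1s2b, Wap, Lalba, Glycam1 and Lpo, were too dim to test. Their WT signals were 13.5 to 49.5, under the WT array medians of 131 and 130. Whether the WT tissue was making milk fat globules was not tested. Csn1s1, the alpha-s1-casein gene, gave 10274 and 11025 in WT and 37.1 and 35.6 in KO, and Ltf, the lactotransferrin gene, gave 444 and 464 in WT and 6863 and 5648 in KO (log2 differences -7.67 and 3.73, limma adjusted p = 8.99e-06 and 0.000313). The KO signals of Csn1s1, like those of Btn1a1, lay below the array medians, so the sizes of these falls are not compared.

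**Figure D4:**
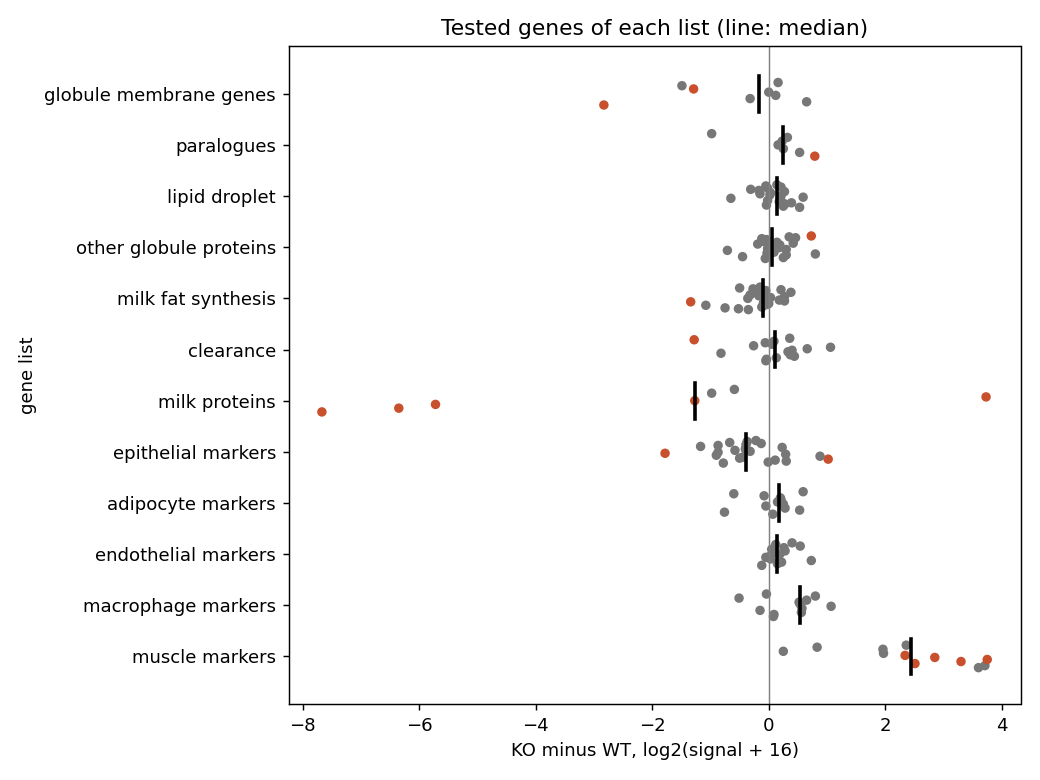
KO minus WT (x axis, log2(signal + 16)) of every tested gene in each list (y axis; 1 point per gene, orange for adjusted p under 0.05, black line for the list's median). The 8 globule membrane genes run from -2.83 to 0.65, the droplet genes lie within -0.65 to 0.59 with no orange point, and milk protein genes run from -7.67 to 3.73.

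The genes whose 4 values were most like those of Btn1a1 and Muc1 were found by the root mean square difference between log2 values centred per gene, over 4 arrays. For Btn1a1 they were Hepacam2 at 0.12, Atp6v1c2, a proton pump subunit, at 0.26, and Col9a1, a collagen chain, at 0.30. Hepacam2 gave 726 and 739 in WT and 68.8 and 82.0 in KO, near the signals of Btn1a1. The KO signals of Hepacam2, Atp6v1c2 and Col9a1 (56.2 to 131), like those of Btn1a1, lay near or under the KO array medians of 121 and 124. A likeness among such dim values says little. The genes nearest to Muc1 were Plk4, a kinase of centriole duplication, at 0.04, Fads2 at 0.06 and Col9a2, another collagen chain, at 0.08. Plk4 gave 868 and 812 in WT and 312 and 318 in KO. With 4 arrays this is a description of likeness only.

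**Figure D5:**
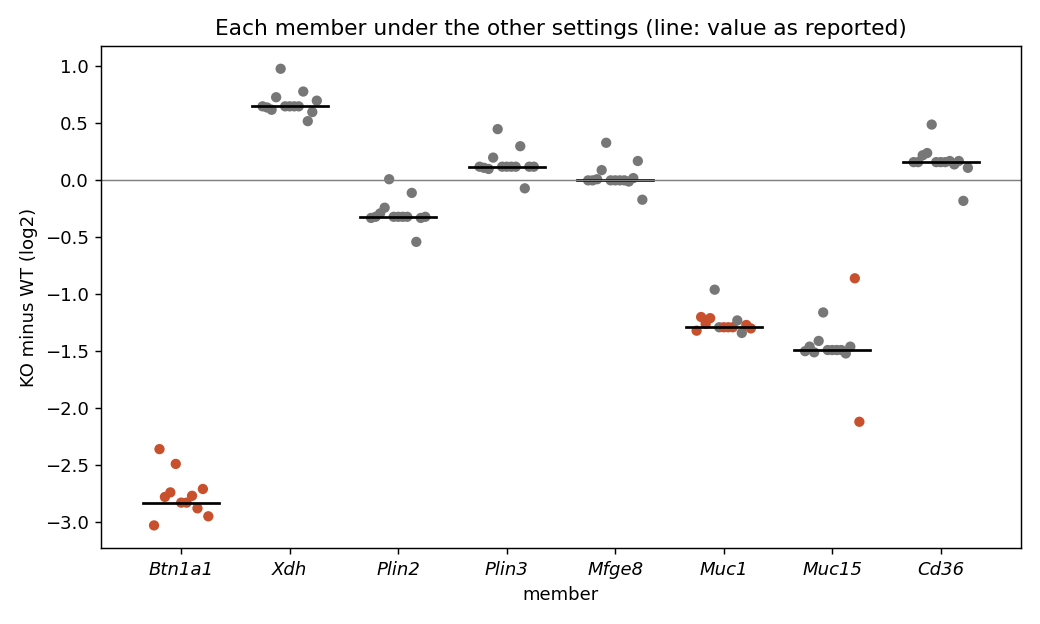
KO minus WT (y axis, log2) of each of the 8 genes (x axis) under every alternative setting that could test it (points, in a fixed order of settings; orange for adjusted p under 0.05), with the value as reported (black line). Btn1a1 is orange in all 11 of its settings, Muc1 in 9 of 13 and Muc15 in 2 of 13, and the other 5 genes in none.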

How the data were processed

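Mammary RNA from 2 WT and 2 KO mice was measured on 4 arrays. The authors deposited linear intensities per probe set, which the submitters' processing notes credit to MAS5, its version and settings not being given in the sources used here. Detection calls were not used, so whether a dim signal exceeded background is unknown here. Precision is limited by the number of arrays. Symbols came from the platform annotation. The 64 control probe sets were left out. Each gene took the values of whichever of its probe sets had the highest mean log2 value. Signals were taken as log2(signal + 16), which understates changes of dim genes. Probe sets with a mean at or above the median, 7.15, were tested (22519 probe sets, 11360 genes) with limma 3.58.1 in R 4.3.3 (lmFit, eBayes with a trend) and called at an adjusted p under 0.05, the code being tested first on simulated data. An exact permutation test of 2 against 2 cannot go below p = 0.333 and was not used. Each p-value tests a mean difference against a variance that limma partly borrows from other probe sets (2 residual degrees of freedom, median total 6.77). With 2 mice per genotype, such a p-value is a weak guide to other mice.

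The 8 genes and all lists were chosen with earlier results of these data known. Genes set for naming were the 8 genes, Stat5a, Stat5b and the 3 nearest genes of each of the 8 that passed. From each list they also included up to 4 past the threshold by smallest p, or else up to 2 by largest absolute difference. Of these, Csn2, Csn1s2a, Flt1, Robo4, Cd14, Myh1, Tnnc2 and Pvalb are not described above. Csn2 and Csn1s2a fell, with log2 differences of -6.35 and -5.72. The alternatives tried were adding 1 or 64 before log2, quantile normalization, centring on the median or on epithelial markers, no filter, a 75th percentile filter, no trend, the mean of a gene's probe sets, and each array left out.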

Additional observations from a re-analysis of the deposited data

How the results depend on the processing

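No paired analysis was possible because the labels give no replicate numbers that the genotypes share. Btn1a1 kept its call in all 11 settings that tested it (-3.03 to -2.36). The stricter filter and the averaging of a gene's probe sets left it too dim to test. The fit centred on epithelial markers is among these settings and among those of every count over settings. Its adjusted p-values cannot be set beside those reported, so its calls carry little weight. The count of lower genes among the 8 was 2 as reported and 1 with epithelial centring, no filter, the 75th percentile filter or averaged probe sets, and lay between 1 and 3 when each array was dropped; the count of higher genes was 0 throughout. Over the same 4 fits, Muc1 ranged from -1.34 to -1.23, Muc15 from -2.12 to -0.86, Plin3 from -0.07 to 0.30, Mfge8 from -0.17 to 0.17 and Cd36 from -0.18 to 0.17. For Cd36 the fits that drop a KO array also change the probe set, since another then is the brightest, so its change of sign is not that of 1 probe set. Without WT replicate 1 Mfge8 was -0.01. Muc1 lost its call with no filter (-1.29). After epithelial centring Muc1 was at -0.96, and Plin2 turned to 0.01. Without KO replicate 2 Pnpla3 turned to 0.04 and Lep, a fat cell marker, to 0.43 (-1.95 without KO replicate 1). Of the other results and settings 504 kept their side of the threshold or stayed within 1.5 times the count reported, 68 counts moved by more, 62 calls were lost and 10 gained. The causes were not tested. Signals near or under the array medians limit the values of Btn1a1, Hepacam2, Atp6v1c2, Col9a1, Col9a2, Muc4, Muc16, Csn1s1 and the muscle markers that rose.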
